A study of Mus musculus with 6 samples.

Results

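Interleukins, colony-stimulating factors and cytokines of the LIF type are secreted signals that bind receptors on neighbouring or distant cells. The group described here was defined as the table rows whose gene name was among 10: Il24, Il34, Csf1, Il33, Il6, Il11, Il18, Il1rn, Lif and Tslp. Of these, 9 rows were found among the 25416 genes of the table, and Il6 was not analysed here. The names were chosen by the levels and fold changes of this same comparison, which were known when the list was drawn up. The values of the cytokine genes are therefore a description, and no p-value is attached to them.

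AML12 is a mouse hepatocyte line derived from an animal transgenic for human TGF alpha, a growth factor that stimulates the EGF receptor, and all 6 samples share this background. Cells received either scrambled RNA (siNC, n = 3) or siRNA against Setdb1 (siSetdb1, n = 3), at an amount labelled as 50 nm, and were harvested 72 h later. Setdb1 encodes an enzyme that methylates lysine 9 of histone H3, a mark of silent chromatin, and the comparison asks how gene expression differs when its mRNA is reduced. The labels do not say whether the 3 samples of a group were separate cultures, so a p-value here speaks only of the spread among libraries and that spread may be technical.

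Cytokine genes are best known from immune cells, but epithelial cells and hepatocytes also make several of them. CSF1 and IL-34 are separate ligands of the macrophage receptor CSF1R. IL-33, IL-18 and the antagonist IL-1RA (Il1rn) belong to the IL-1 family, IL-6, IL-11 and LIF signal through the shared subunit gp130 (Il6st), IL-24 belongs to the IL-10 family, and TSLP is an epithelial cytokine that acts on immune cells.

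Library totals, inferred from the deposited values, were 16790582 to 17835060 reads. Setdb1 mRNA was 8.80 ± 0.55 FPKM (reads scaled by exon length and by the library's total, mean ± SD, n = 3) in siNC and 3.93 ± 0.56 FPKM in siSetdb1, lower by 55.3%. On the first principal component, which held 54.8% of the variance, siNC replicate 1 lay at -26.7, apart from the other siNC libraries at -11.7 and -10.8. Of the hepatocyte markers, Hnf4a was at 34.7 FPKM and Alb at 7.93 FPKM in siNC, and Tat and Serpina1a were at 0.0243 and 0.0530 FPKM. The bile duct keratin gene Krt19 was at 1300 FPKM, and hepatocyte markers at near 0 stood beside hepatocyte and biliary markers at high levels. The pan-leukocyte gene Ptprc was at 0.00635 FPKM in siNC and 0.00942 FPKM in siSetdb1, and no lymphocyte or endothelial marker with a row reached 0.5 FPKM in 3 libraries.

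Windows before start sites of 4 of these genes are shown. Those of Csf1, Lif and Il1rn hold motifs of transcription factors that act on cytokine genes. Il33 is shown because the gene was lower and its windows held none. Il33 and Il1rn had further windows that are not shown, and the further windows of Il1rn held none of the motifs searched for. RefSeq promoters (build GRCm38.p6) matched 7 of the 10 names, with 11 windows in all, and the 250 bases before each start were searched on both strands. Il24, Il34 and Tslp had no window, so the genes called higher, Il24 and Il34, were outside the search. Il6, whose expression was not analysed, had a window that is counted. Capitals mark a motif, lower case the rest, all 5′ to 3′ on the strand of the gene. The windows are chr3:107760470-107760719 (minus strand, Csf1), chr19:29924863-29925112 (plus strand, Il33), chr11:4257318-4257567 (plus strand, Lif) and chr2:24336610-24336859 (plus strand, Il1rn).
Csf1: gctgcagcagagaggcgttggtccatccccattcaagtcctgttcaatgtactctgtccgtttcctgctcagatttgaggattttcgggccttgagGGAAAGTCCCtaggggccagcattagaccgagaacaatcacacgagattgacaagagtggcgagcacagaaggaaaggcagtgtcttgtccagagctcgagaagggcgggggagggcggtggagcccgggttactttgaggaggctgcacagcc
Il33: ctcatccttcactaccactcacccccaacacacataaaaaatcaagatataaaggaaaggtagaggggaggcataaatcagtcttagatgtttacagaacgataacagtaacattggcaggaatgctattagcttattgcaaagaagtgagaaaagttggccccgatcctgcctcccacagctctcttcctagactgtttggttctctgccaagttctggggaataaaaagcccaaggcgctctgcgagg
Lif: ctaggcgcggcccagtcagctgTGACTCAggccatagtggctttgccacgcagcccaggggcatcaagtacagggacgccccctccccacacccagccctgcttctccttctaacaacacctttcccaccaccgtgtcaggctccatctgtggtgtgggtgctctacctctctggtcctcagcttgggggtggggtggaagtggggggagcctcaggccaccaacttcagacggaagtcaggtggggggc
Il1rn: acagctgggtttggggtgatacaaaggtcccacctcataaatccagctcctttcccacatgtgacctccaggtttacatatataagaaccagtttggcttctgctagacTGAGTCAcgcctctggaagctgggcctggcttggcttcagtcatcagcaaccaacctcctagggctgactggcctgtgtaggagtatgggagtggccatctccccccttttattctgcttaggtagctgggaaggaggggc

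The capitals in the Csf1 window are a match to the NF-kB motif on the opposite strand, where it reads GGGACTTTCC, 154 to 145 bases before the start. An NF-kB match stood in 2 of the 11 windows, those of Csf1 and Il6, and in 3.9% of all 32851 windows of this length. The capitals in the Lif and Il1rn windows are matches to the AP-1 motif TGANTCA, at 228 to 222 and 141 to 135 bases before the start. This motif stood in 4 of the 11 windows, the others being 1 of the Il11 windows and that of Il6, and in 6.75% of all windows. The motifs of CRE (TGACGTCA), EGR (GCGTGGGCG) and SRF (the CArG box) stood in none of the 11, and in 1.55%, 0.536% and 1.47% of all windows. None of these motifs overlapped another in the members' windows. A match describes letters only, and which start site the cells used is not known from these data.

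The cytokine genes did not move in a single direction. Il24 and Il34 were higher in siSetdb1, Csf1 and Il33 were lower, Lif and Il1rn were not called, and Il11, Il18 and Tslp were too low to be tested. A gene was tested if it reached 0.5 FPKM in 3 or more libraries and was called at an adjusted p under 0.05 (limma, on log2(FPKM + 1), adjusted by Benjamini-Hochberg over all 12846 genes tested). Of the 9 genes, 6 were tested, of which 2 were called higher and 2 lower, also when siNC replicate 1 was left out. On leaving out siNC replicate 2, siSetdb1 replicate 1 or siSetdb1 replicate 3, 2 were called higher and 1 lower. Of all genes tested, 15.1% were called, 6.87% higher and 8.27% lower, and since the cytokine genes were chosen with this comparison known, nothing is read from the difference. Among the 6, 5 had groups that did not overlap (3 higher and 2 lower), against 39.2% of all genes tested (17.6% higher and 21.6% lower). A call with a log2 fold change of at least 1 in size was made for 2 of the 6, Il24 and Csf1, and for 0.763% of all genes tested.

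**Figure D1:**
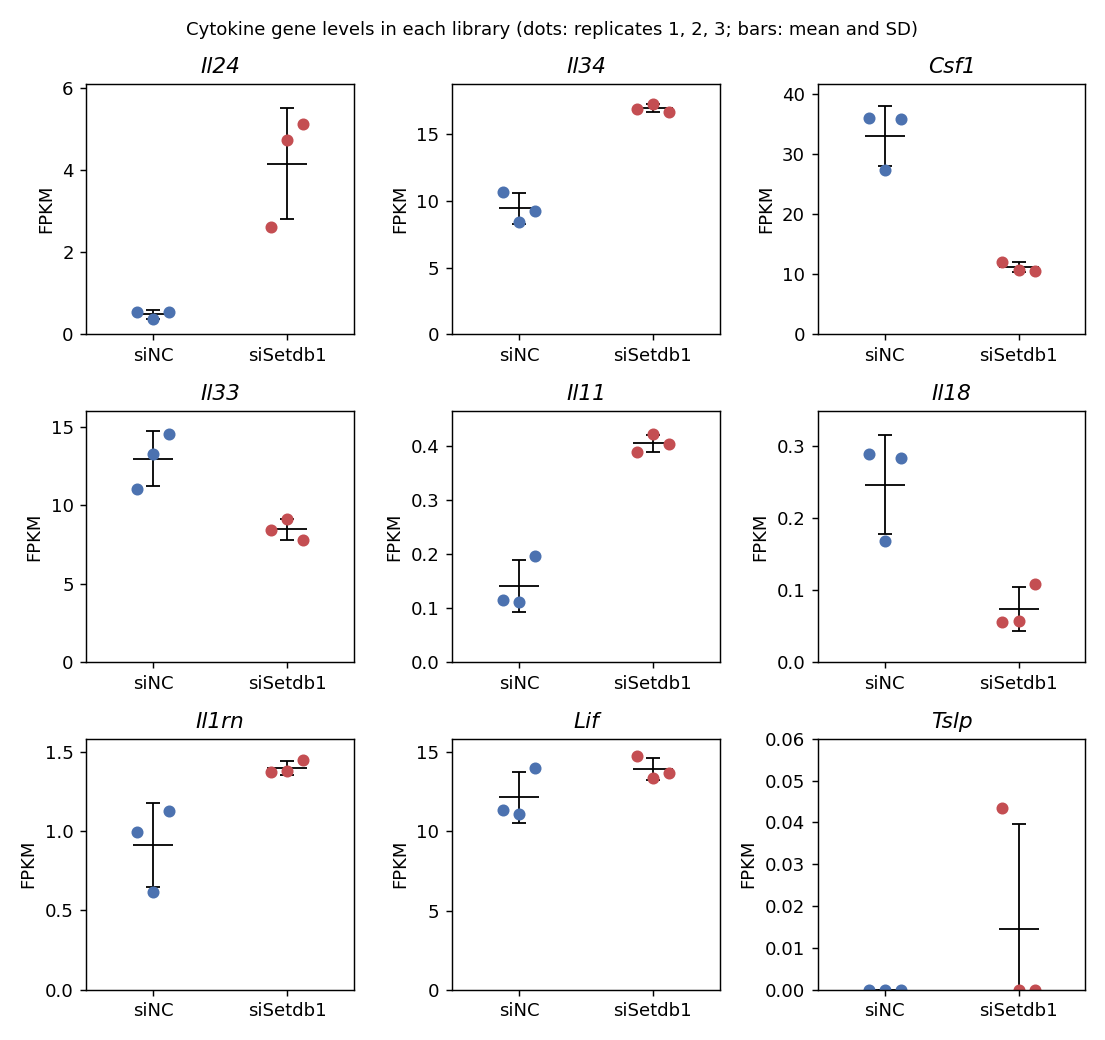
FPKM of the 9 cytokine genes in each library, with siNC in blue and siSetdb1 in red, dots for replicates 1, 2 and 3 from left to right, and bars for the mean and SD. The y axes start at 0 and differ between panels. Il24, Il34, Il11 and Il1rn lie higher in every siSetdb1 library and Csf1, Il33 and Il18 lower, while Lif overlaps and Tslp is at 0 in 5 of 6 libraries.

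The ligands of CSF1R moved in opposite directions. Csf1 (ENSMUSG00000014599, mm10 chromosome 3, 107741048 to 107760469, minus strand) encodes the main growth and survival factor of macrophages. It was at 36.0, 27.4 and 35.9 FPKM in siNC replicates 1 to 3 and at 12.1, 10.8 and 10.6 FPKM in siSetdb1. All siSetdb1 libraries lay below all siNC libraries, and the lowest siNC library, replicate 2, was still above the highest siSetdb1 library. The mean was 33.1 ± 5.0 FPKM against 11.2 ± 0.8 FPKM, a level 2.96 times as high in siNC, for a log2 fold change of -1.48 (SE 0.12). From 972 to 3256 reads per library stood behind these values. Among the 12846 genes tested, Csf1 ranked 9 from the lowest log2 fold change.

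Il34 (ENSMUSG00000031750, chromosome 8, 110741829 to 110805924, minus strand) encodes the alternative ligand, which is known for maintaining macrophages of the skin and brain. Its level was 10.6, 8.42 and 9.21 FPKM in siNC and 16.9, 17.3 and 16.7 FPKM in siSetdb1. The siSetdb1 libraries were close to each other and all above siNC. The means were 9.42 ± 1.13 and 16.9 ± 0.3 FPKM, 1.80 times as high in siSetdb1 (log2 fold change 0.79, SE 0.09), from 287 to 582 reads per library. Antisense genes Gm15895 and Gm15894 overlap Il34, and since no step marking strand is named in the labels, their reads cannot be told apart from those of Il34 where they share bases. Gm15895 was at 1.63 and 1.70 FPKM in siNC and siSetdb1 and Gm15894 at 0.0661 and 0.186 FPKM.

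Within each library, the FPKM of Csf1 divided by that of Il34 gave 3.39, 3.25 and 3.90 in siNC and 0.719, 0.625 and 0.637 in siSetdb1. Csf1 thus had the higher level of the pair in each siNC library and Il34 in each siSetdb1 library. Their summed level was 46.7, 35.8 and 45.1 FPKM in siNC and 29.0, 28.0 and 27.3 FPKM in siSetdb1. Their receptor gene Csf1r was at 0.152 ± 0.009 FPKM in siNC and 0.0794 ± 0.0181 FPKM in siSetdb1 and was not tested. Csf1r lies opposite Hmgxb3, whose level was 5.07 and 4.84 FPKM, and reads on bases they share cannot be told apart. The proteoglycan gene Sdc1, whose product also binds IL-34, was at 44.3 ± 5.8 and 57.0 ± 4.8 FPKM and was not called (adjusted p = 0.0628, limma).

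Il24 had the steepest difference of the group. Il24 (ENSMUSG00000026420, chromosome 1, 130882074 to 130887454, minus strand) encodes an IL-10 family cytokine that acts mainly on epithelial cells. It was at 0.559, 0.373 and 0.546 FPKM in siNC and at 2.63, 4.73 and 5.14 FPKM in siSetdb1. Every siSetdb1 library was above siNC, and siSetdb1 replicate 1 was the lowest of the knockdown group. The mean was 0.493 ± 0.104 FPKM against 4.17 ± 1.35 FPKM, a ratio of 8.46. The log2 fold change was 1.76 (SE 0.19) on the log2(FPKM + 1) scale, which understates changes of low genes, 2.81 where the pseudocount was 0.1, and 2.99 by limma-voom run on recovered reads. These values rest on 9 to 13 reads per siNC library and, with the knockdown, on 63, 112 and 127 reads. Il24 reached 0.5 FPKM in 2 siNC libraries and so passed the filter only through siSetdb1. It ranked 8 from the highest log2 fold change among all genes tested.

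The receptor subunits for IL-24 were low, and those tested were not called. Il22ra1 was at 1.41 ± 0.39 FPKM in siNC and 1.43 ± 0.11 FPKM in siSetdb1 (adjusted p = 0.937, limma). Il20rb, the subunit that joins with it, was at 0.532 ± 0.163 and 0.612 ± 0.068 FPKM (adjusted p = 0.663). Il20ra was at 0 in all siNC libraries and at 0.0238, 0.0241 and 0.0693 FPKM in siSetdb1 and was not tested.

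**Figure D2:**
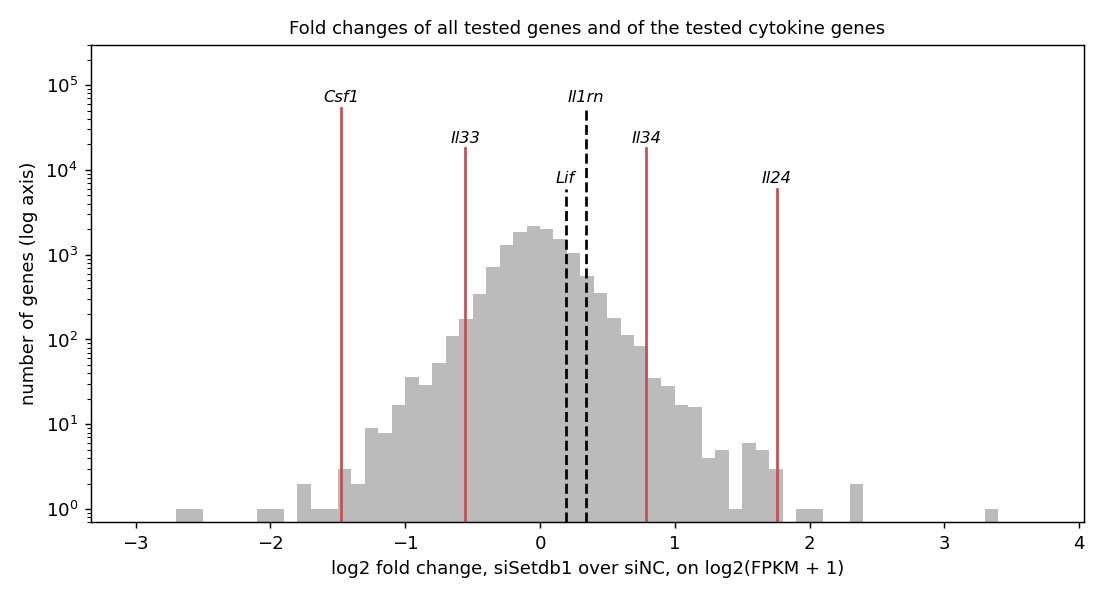
Number of tested genes (log axis) by log2 fold change of siSetdb1 over siNC on log2(FPKM + 1), in grey, with lines at the 6 tested cytokine genes, solid red where called and dashed black where not (line heights carry no value). Il24 at 1.76 and Csf1 at -1.48 lie in the thin tails on either side, and Lif at 0.19 and Il1rn at 0.34 lie within the bulk of genes.

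The IL-1 family genes differed among themselves. Il33 (ENSMUSG00000024810, chromosome 19, 29925114 to 29960718, plus strand) encodes a cytokine kept in the nucleus and released from damaged cells. Its level was 11.1, 13.3 and 14.6 FPKM in siNC and 8.44, 9.15 and 7.81 FPKM in siSetdb1. The groups did not overlap, with siNC replicate 1 the closest to siSetdb1. The means were 13.0 ± 1.8 and 8.47 ± 0.67 FPKM, 1.53 times as high in siNC (log2 fold change -0.56, SE 0.11), from 402 to 722 reads per library. The call was lost when siNC replicate 2 was left out (log2 fold change -0.54), and likewise for siSetdb1 replicate 1 (-0.56) or siSetdb1 replicate 3 (-0.51), and with no filter on low values. Its receptor gene Il1rl1 was at 0.102 ± 0.031 and 0.111 ± 0.056 FPKM.

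Il1rn (ENSMUSG00000026981, chromosome 2, 24336853 to 24351494, plus strand) encodes the natural antagonist of the IL-1 receptor. It was at 0.990, 0.613 and 1.13 FPKM in siNC and at 1.37, 1.38 and 1.45 FPKM in siSetdb1. The siSetdb1 libraries were all above siNC, whose replicates were more spread. The means were 0.909 ± 0.266 FPKM in siNC and 1.398 ± 0.044 FPKM in siSetdb1, and the log2 fold change of 0.34 (SE 0.12) was not called. With limma-voom on 59 to 143 reads per library it was called, at a log2 fold change of 0.67. Il1a, an agonist of the same receptor, was at 0.0490 and 0.0492 FPKM, and the receptor gene Il1r1 at 0.279 ± 0.048 and 0.0603 ± 0.0141 FPKM, and neither was tested.

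Il18 (ENSMUSG00000039217, chromosome 9, 50554827 to 50581840, plus strand), a cytokine that inflammasome caspases activate, was at 0.289, 0.167 and 0.282 FPKM in siNC and 0.0561, 0.0568 and 0.109 FPKM in siSetdb1. Only 5, 3 and 5 reads and 1, 1 and 2 reads stood behind these values, so no fold is given. Its receptor chains were uneven, with the ligand-binding chain gene Il18r1 at 0.0121 FPKM in each group mean and the accessory chain gene Il18rap at 5.55 ± 0.67 FPKM in siNC and 7.20 ± 0.91 FPKM in siSetdb1 (adjusted p = 0.0846, limma). The decoy gene Il18bp, whose product neutralises IL-18, was at 1.060 ± 0.296 and 1.16 ± 0.31 FPKM (adjusted p = 0.772), and Numa1, at 31.8 and 30.9 FPKM, overlaps it on the other strand.

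Of the genes whose products signal through gp130, Lif was abundant and Il11 was scarce. Lif (ENSMUSG00000034394, chromosome 11, 4257557 to 4272514, plus strand), known for holding mouse stem cells undifferentiated and for inducing acute-phase genes in liver, was at 11.4, 11.1 and 14.0 FPKM in siNC and 14.7, 13.4 and 13.7 FPKM in siSetdb1. The groups overlapped, as siNC replicate 3 lay within the range of siSetdb1. The means were 12.2 ± 1.6 and 13.9 ± 0.7 FPKM from 830 to 1108 reads per library, and the log2 fold change of 0.19 (SE 0.10) was not called.

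Il11 (ENSMUSG00000004371, chromosome 7, 4772373 to 4782859, minus strand), a cytokine linked to fibrosis and to platelet formation, was at 0.114, 0.110 and 0.196 FPKM in siNC and 0.389, 0.422 and 0.404 FPKM in siSetdb1. Each siSetdb1 library was above each siNC library. Only 4, 4 and 7 siNC reads and 14, 15 and 15 siSetdb1 reads stood behind these values. As for Il18, no fold is given, and Il11 was under the filter on low values. Tslp (ENSMUSG00000024379) had 1 read in siSetdb1 replicate 1 and 0 reads in the other 5 libraries. TSLP's receptor chain gene Crlf2 was at 9.85 ± 1.23 and 10.98 ± 1.00 FPKM and was not called (adjusted p = 0.362, limma).

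The order of the cytokine genes by level, on the FPKM scale, differed between the groups. In siNC it was Csf1, Il33, Lif, Il34, Il1rn, Il24, Il18, Il11 and Tslp, where the ranges of Il33 and Lif overlapped and so did those of Il18 and Il11. In siSetdb1 it was Il34, Lif, Csf1, Il33, Il24, Il1rn, Il11, Il18 and Tslp, and no neighbours in that order had overlapping ranges. Il18 and Tslp had 1 read each in siSetdb1 replicate 1, so their ranges stood apart only through the length of their exons. These are RNA samples of whole cultures, in which fewer cells making a transcript and less transcript per cell cannot be told apart.

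**Figure D3:**
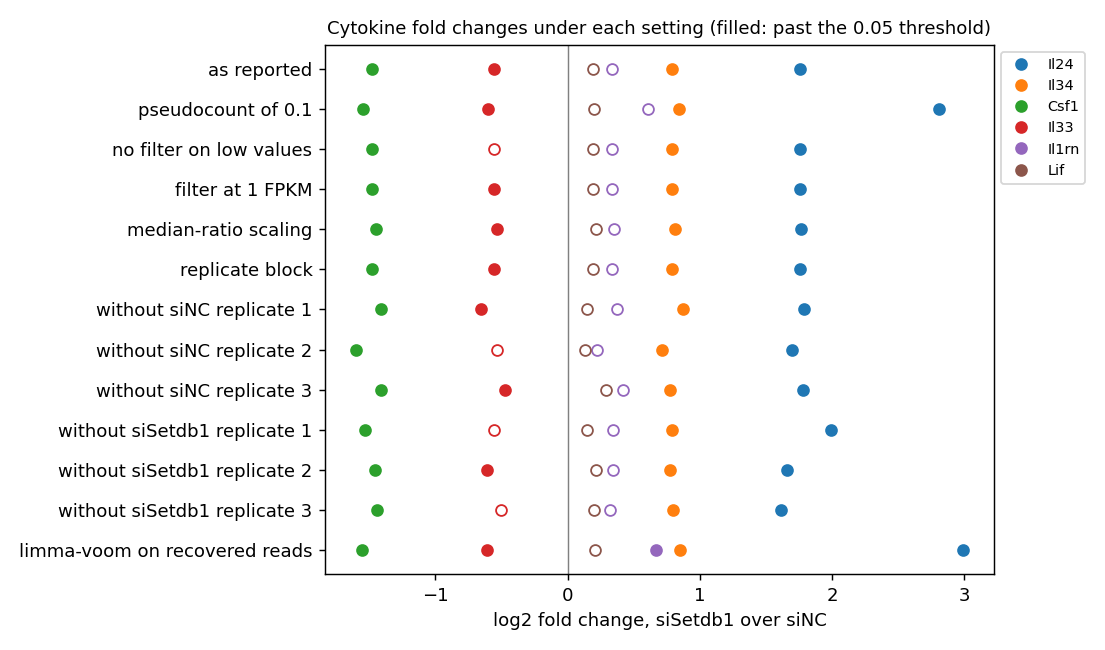
Log2 fold change of siSetdb1 over siNC (x axis) of the 6 tested cytokine genes as reported and under each alternative setting (y axis), filled where called and open where not. Each gene keeps to its own side of 0 in all settings, Il33 is open in 4 of them, and Il24 reaches 2.81 and 2.99 with a small pseudocount and with limma-voom.

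Macrophage markers were compared because CSF1, IL-34 and IL-18 belong to macrophage biology. Of 6 such markers with a row, 2 reached 0.5 FPKM in 3 libraries, and both were called lower (8.27% of all genes tested were). Cd68, a lysosomal protein gene, fell from 5.27 ± 1.07 to 2.48 ± 0.46 FPKM (adjusted p = 0.012, limma; 0.0516 on leaving out siSetdb1 replicate 2), and Cd14, an endotoxin co-receptor gene, from 49.0 ± 5.2 to 37.8 ± 3.5 FPKM (adjusted p = 0.0467, and 0.0508 to 0.155 on leaving out any library). The summed level of the 6 was 51.7 to 61.1 FPKM in siNC and 37.7 to 44.5 FPKM in siSetdb1, mostly from Cd14. The defining genes Ptprc, Itgam and Csf1r were at 0.00635, 0.0157 and 0.152 FPKM in siNC. Hepatocyte markers also moved, with summed levels of 94.0 to 142 FPKM in siNC and 49.3 to 74.6 FPKM in siSetdb1 and 3 of 7 tested markers called lower (8.27% of all genes tested were). Of these, Trf was called in each fit that left out 1 library, Ttr in 2 of 6 such fits and Cebpa in 0 of 6 (adjusted p 0.0571 to 0.165, limma), and Cebpa passed the filter only through siNC. Biliary markers summed to 1611 to 1792 and 1604 to 1784 FPKM, mostly from Krt19 (means of 1300 and 1353 FPKM). Of 4 tested, 2 were called higher and 1 lower, against 6.87% and 8.27% of all genes tested. Krt7 rose from 154 to 218 FPKM and Sox9 from 4.95 to 9.26 FPKM, and Spp1 fell from 220 to 115 FPKM. These 3 calls (adjusted p = 0.00827, 0.0068 and 0.00689, limma) held in each fit that left out 1 library. Lymphocyte, endothelial and fibroblast markers summed to at most 0.506, 0.193 and 1.22 FPKM in any library. Of these, only the fibroblast marker Des was tested, and it was not called. No gene of the table was at 0 in all libraries, so listed markers without a row could not be assessed. The part of these markers in the cytokine values was not tested.

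Among other genes of the same cytokine classes, Csf2 and Csf3 rose and Cntf fell. Of 49 listed genes, 26 had a row and 8 were tested, of which 3 were called and 5 were not, against 15.1% called among all genes tested, with a median log2 fold change of 0.22 against -0.02 over all genes tested. Csf2, encoding GM-CSF, a growth factor of granulocytes and macrophages, was at 0.521, 0.646 and 0.218 FPKM in siNC and 1.23, 2.27 and 1.61 FPKM in siSetdb1. All siSetdb1 libraries were above siNC, and the log2 fold change was 0.88 (SE 0.17, adjusted p = 0.0161, limma). Csf2 passed the filter only through siSetdb1. Csf3, encoding the granulocyte factor G-CSF, was at 5.27, 4.19 and 6.43 FPKM and at 9.38, 11.5 and 8.73 FPKM, again without overlap (log2 fold change 0.80, SE 0.15, adjusted p = 0.0148). Both colony-stimulating factor genes rose while Csf1 was lower. Cntf, a ciliary neurotrophic factor gene, fell from 1.05 ± 0.21 to 0.394 ± 0.090 FPKM (adjusted p = 0.0193). It lies within Zfp91 on the same strand, at 25.9 and 20.5 FPKM, so that the split of reads between them is uncertain, and it passed the filter only through siNC. Leaving out siSetdb1 replicate 2 moved the adjusted p of Csf2 to 0.0543 and that of Csf3 to 0.0541, and leaving out siSetdb1 replicate 1 moved that of Csf3 to 0.0517. With no filter on low values Csf2 and Csf3 stood at 0.0563 and 0.0524. The call of Cntf was lost on leaving out siNC replicate 2 (0.0584), siSetdb1 replicate 1 (0.076) or siSetdb1 replicate 3 (0.0623), and for siSetdb1 replicate 2 it missed the threshold by less than the digits printed (0.05). The list's count was 5 when siNC replicate 1 was left out, 1 for siSetdb1 replicate 1 and 0 for siSetdb1 replicate 2. In the fit with a count of 0, 3 genes had an unadjusted p under 0.05, and limma-voom called 3 in all libraries.

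Among receptors and decoys for the cytokines, the subunits of the IL-6 receptor moved in opposite directions. Of 19 listed genes, 15 had a row and 9 were tested, of which 1 rose, 1 fell and 7 were not called (15.1% of all genes tested were called), with a median log2 fold change of 0.08. Il6ra, which encodes the subunit that binds IL-6, was at 2.86, 2.94 and 2.86 FPKM in siNC and 4.88, 4.65 and 4.48 FPKM in siSetdb1. The groups were far apart relative to their spread (log2 fold change 0.54, SE 0.07, adjusted p = 0.00415, limma). Il6st, which encodes the shared subunit gp130, was at 14.1, 13.01 and 14.98 FPKM in siNC and 10.8, 9.65 and 10.2 FPKM in siSetdb1, with no overlap (log2 fold change -0.42, SE 0.08, adjusted p = 0.0142). When siSetdb1 replicate 2 was left out, Il6st was not called (adjusted p = 0.0633) and the list's count was 1, and when siNC replicate 1 was left out the count was 3. Il11ra1, the IL-11 receptor gene, was at 1.68 ± 0.27 and 1.36 ± 0.13 FPKM (adjusted p = 0.272). The LIF receptor gene Lifr was not analysed here.

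**Figure D4:**
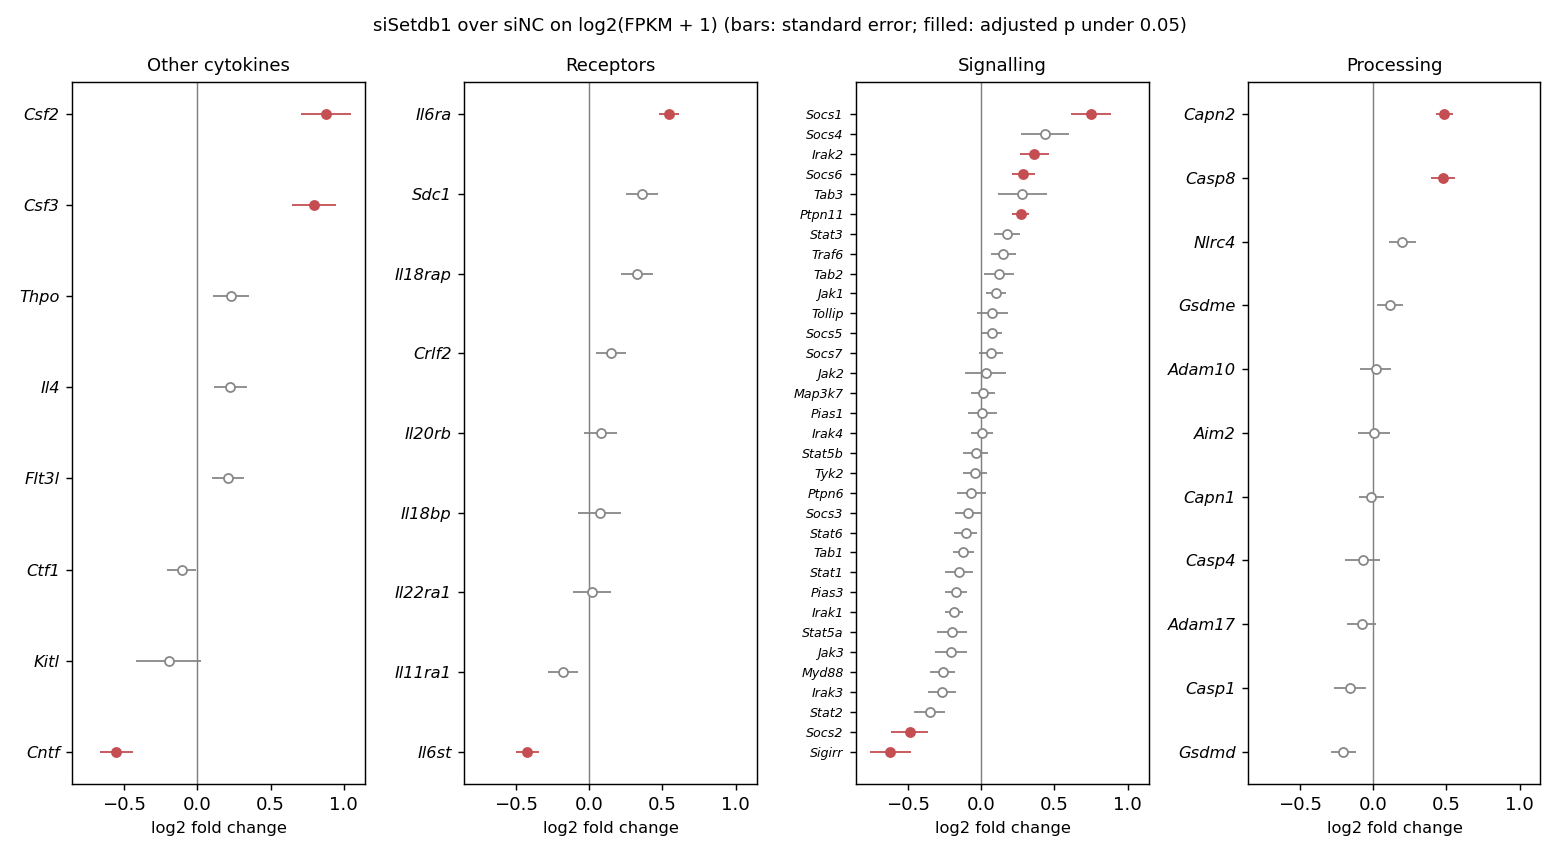
Log2 fold change of siSetdb1 over siNC on log2(FPKM + 1) (x axis, bars for the standard error) for the tested genes of the lists of other cytokines, receptors, signalling genes and processing genes, filled red where the adjusted p was under 0.05. Csf2, Csf3, Il6ra, Socs1, Capn2 and Casp8 stand to the right and Cntf, Il6st, Socs2 and Sigirr to the left, and most genes lie near 0.

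Of 35 listed genes that act directly below these receptors, 33 were tested, of which 4 rose, 2 fell and 27 were not called, against 15.1% called among all genes tested, with a median log2 fold change of 0.01. Socs1, an inhibitor of JAK kinases that cytokines induce, was at 1.25, 1.09 and 1.14 FPKM in siNC and 2.11, 2.46 and 3.43 FPKM in siSetdb1 (log2 fold change 0.75, SE 0.14, adjusted p = 0.013, limma). It passed without any single library. Socs3, the inhibitor that acts on gp130, was at 11.7 ± 1.3 and 10.9 ± 0.5 FPKM (adjusted p = 0.517), and Stat3, the transcription factor below gp130, at 9.92 ± 1.12 and 11.3 ± 0.4 FPKM (adjusted p = 0.216), both named although not called because gp130 is the subunit that fell. Sigirr, an inhibitor of IL-1 family receptors, fell by 0.62 on the log2 scale, from 5.65 ± 1.41 to 3.26 ± 0.08 FPKM (adjusted p = 0.0268), and Socs2, an inhibitor of growth hormone signalling, by 0.49 (adjusted p = 0.0421). Irak2, a kinase of IL-1 signalling, Socs6, a further SOCS gene, and Ptpn11, the phosphatase gene of SHP2, rose by 0.36, 0.29 and 0.27 (adjusted p = 0.0458, 0.0478 and 0.0267).

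Apart from Socs1, the calls of these genes, but not the direction of their fold changes, were lost when single libraries were left out. For Sigirr, the adjusted p was 0.0925, 0.0835 or 0.0755 on leaving out siSetdb1 replicate 1, 2 or 3, at log2 fold changes of -0.62, -0.64 and -0.61. For Socs2, it was 0.0746, 0.107 or 0.0693 on leaving out siNC replicate 1, 2 or 3, 0.123 or 0.101 for siSetdb1 replicate 1 or 2, and 0.0573 after scaling by median ratios, and its log2 fold change lay between -0.62 and -0.36 in the fits that left out 1 library. The calls of Irak2, Socs6 and Ptpn11 were lost on leaving out any library but siNC replicate 1, with adjusted p of 0.0805 to 0.131, 0.0718 to 0.166 and 0.0707 to 0.0984. Over all fits that left out 1 library, their log2 fold changes were 0.28 to 0.43, 0.22 to 0.32 and 0.25 to 0.29. The list's count was then 5 for siNC replicate 1, 2 for siNC replicate 2 or 3 or siSetdb1 replicate 3, and 1 for siSetdb1 replicate 1 or 2.

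A list of genes for the processing and release of IL-1 family cytokines and the shedding of receptors held proteases, inflammasome sensors and adaptors, and pore-forming gasdermins. Of its 16 genes, 15 had a row and 11 were tested, of which 2 were called, both higher (6.87% of all genes tested were), with a median log2 fold change of 0.0036. Capn2, encoding a calcium-activated protease of the family that cuts the IL-1 alpha precursor, went from 29.6 ± 0.4 FPKM up to 41.9 ± 1.5 FPKM, by 0.49 on the log2 scale (adjusted p = 0.00374, limma). Casp8, encoding a caspase of cell death, rose from 30.3 ± 2.6 to 42.4 ± 1.9 FPKM (0.48, SE 0.08, adjusted p = 0.0104). When siSetdb1 replicate 2 was left out its adjusted p was 0.0511 and the list's count 1. None fell by limma-trend or limma-voom, and 1 had an unadjusted p under 0.05 in the lower direction by each.

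The nearest tested protein-coding gene on each side of the 9 genes gave 18 neighbours, of which 1 rose, 2 fell and 15 were not called, against 15.1% called among all genes tested. Beside Il24, Fcamr, 67.3 kb away, was at 0.418 ± 0.035 and 0.808 ± 0.255 FPKM (adjusted p = 0.0979, limma), and Mapkapk2, 166.2 kb away, at 46.0 ± 2.5 and 42.7 ± 2.9 FPKM (adjusted p = 0.375). Fcamr passed the filter only through siSetdb1. Beside Csf1, Ahcyl1 was at 56.1 ± 2.9 and 56.3 ± 2.2 FPKM (adjusted p = 0.969), and Gstm5 at 1.59 ± 0.62 and 0.777 ± 0.163 FPKM (adjusted p = 0.0841). The neighbours of Il34, Vac14 and Sf3b3, had adjusted p = 0.27 and 0.21. The neighbours that fell were Sdhd, a gene of mitochondrial complex II 14.5 kb from Il18, from 71.62 ± 3.34 FPKM down to 36.04 ± 1.28 FPKM (-0.97 on the log2 scale, adjusted p = 0.000692), and Hormad2, a meiosis gene 73.3 kb from Lif, from 0.656 ± 0.131 to 0.238 ± 0.042 FPKM (adjusted p = 0.0357), which passed the filter only through siNC. The neighbour that rose was Bin1, a membrane-bending protein gene 379.6 kb from Tslp, from 28.2 ± 1.8 to 38.6 ± 0.2 FPKM (adjusted p = 0.00737).

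Genes whose profile over the 6 libraries was most like that of a cytokine gene were found by the root-mean-square difference between log2(FPKM + 1) values, each centred on its own mean. For Il24 they were Dusp5, an ERK phosphatase gene (difference 0.14), Sdcbp2, a syntenin gene (0.18), and Fos, an AP-1 subunit gene (0.19). For Csf1 they were Hpx, the heme carrier gene (0.13), Hsd17b14, a steroid dehydrogenase gene (0.14), and Spon2, a secreted matrix protein gene (0.19). For Il34 they were Card14, a scaffold gene of NF-kB signalling in skin (0.05), Slc4a11, a membrane transporter gene (0.05), and Gm50288 (0.06). Gm50288 was at 0.0649 FPKM in siNC and 0.877 FPKM in siSetdb1 and passed the filter only through siSetdb1. These likenesses are over 6 libraries of 2 groups, and nothing is read from them about shared function or control.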

How the data were processed

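Polyadenylated RNA of 6 AML12 samples was sequenced as single-end reads, per the labels' protocols. Per the submitters' processing notes, HISAT2 2.0.4, Bowtie2 2.2.5, RSEM 1.2.12, DESeq2 1.4.5 and the build mm10 were used, with no role given. The deposited values carry no unit in the header. They were identified as FPKM made by the authors, because they gave whole reads within 0.01 for 98.6% of genes. This used GENCODE M21 exon lengths (found for 25372 of 25416 genes) and library totals inferred from the lowest values above 0. FPKM falls for other genes when a few abundant genes gain reads. No strand setting is given in the sources used here.

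The 12846 genes that reached 0.5 FPKM in at least 3 libraries were fitted by limma 3.58.1 (R 4.3.3) on log2(FPKM + 1) (trend, robust, group only, two-sided, Benjamini-Hochberg, 0.05). On simulated data the same fit made a larger share of false calls than the nominal one. The low-value filter passes a gene that is high in either group. Libraries of a group differed by more than counting error (chi-square over its degrees of freedom 5.06 to 26.3). Named genes were the cytokine genes, up to 6 called genes per other list and fixed receptors, and others are said to be outside this rule where they appear (Socs3, Stat3) or stand in the text as markers, neighbours, overlapping genes or further receptor, decoy and agonist genes of a cytokine, which were chosen after values were seen. The cytokine genes, lists and tests were chosen with earlier results of these data known. Alternatives were other pseudocounts, filters, scaling, a replicate block, leaving out each library, and limma-voom on recovered reads.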

Additional observations from a re-analysis of the deposited data

How the results depend on the processing

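The cytokine calls numbered 4 of 6 as reported and 3 to 5 over the 12 alternatives. Il24, Il34 and Csf1 were called in the same direction in all 12, Il33 in 8, and Lif in none, while Il1rn was called by limma-voom alone. Because these genes were chosen with this comparison known, such counts describe how the settings differ and lend the calls no support. Fitted values ranged from 1.61 to 2.99 for Il24, 0.72 to 0.87 for Il34, -1.60 to -1.41 for Csf1, -0.66 to -0.47 for Il33, 0.22 to 0.67 for Il1rn and 0.13 to 0.29 for Lif. The 1945 genes called became 890 with no filter, where more genes were tested, 1015 with the replicate block, and 683 to 2176 when 1 library was left out. Of all genes, 883 were called higher and 1062 lower, and 997 and 846 after median-ratio scaling. The signalling count of 6 was 1 with no filter, 1 with the block and 1 to 5 when 1 library was left out. The count of 3 other cytokines was 1, 1 and 0 to 5 under the same settings. Leaving out 1 library gave 1 to 3 receptors and 1 to 2 processing genes called. Fewer samples remain in such fits, and the cause of the other shifts was not tested. Same-numbered libraries deviated from their group means with correlations of -0.157, 0.167 and -0.172, not all libraries were most like their own number, and no label joins them, so the numbers were not treated as pairs. No call of the 6 tested cytokine genes differed under the block, and it ended those of Csf3, Cntf, Socs2, Socs6, Ptpn11, Irak2 and Sigirr. Depth limits Il11, Il18 and Tslp, which had at most 15 reads in any library.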
